A study of Mus musculus with 6 samples.

Results

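The Notch pathway was examined in E12.5 mouse testes through 10 genes: the receptors Notch1, Notch2 and Notch3, the ligands Jag1, Jag2 and Dll4, and the target genes Hes1, Hey1, Hey2 and Heyl. They were chosen by symbol, as genes known to act on Leydig progenitors and vessels of the fetal testis, and make up 10 of the 24470 genes of the deposited count table. All 10 passed the filter on low counts, which 15577 genes passed in all. RNA-seq was performed on 3 control and 3 Ppp1r3c cKO samples. The control embryos were Ppp1r3c f/f, and the cKO (conditional knockout) embryos were Sf1-Cre Ppp1r3c f/f, so both groups carried the floxed alleles and the control embryos carried no Cre. Each sample pooled the gonad pairs of 2 embryos on a C57BL/6 background. The Cre is a transgene driven by Nr5a1 (Sf1) sequences that is active in Sertoli cell progenitors and other somatic cells of the gonad. Without Cre in the controls, the presence of Cre and the loss of Ppp1r3c cannot be told apart.

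Notch receptors are single-pass membrane proteins that are activated by Jagged or Delta-like ligands on a neighbouring cell. Ligand binding exposes the receptor to cleavage by ADAM proteases and then by gamma-secretase, which frees an intracellular domain that enters the nucleus and joins the DNA-binding protein RBPJ and a Mastermind coactivator. Hes and Hey genes, which encode basic helix-loop-helix repressors, are the best known targets of this complex. In the fetal testis the pathway is known for keeping interstitial cells in a progenitor state and limiting their differentiation into steroid-producing fetal Leydig cells, and in vessels it acts in arterial and mural cells.

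The libraries held between 16139487 and 44145158 counts, with control replicate 1 the shallowest. Values are given as CPM, in which each count is divided by its library's total after TMM normalization, a correction for library composition. Ppp1r3c, which encodes a glycogen-targeting subunit of protein phosphatase 1, was at 24.4, 22.1 and 22.9 CPM in control replicates 1 to 3 and at 4.71, 5.37 and 5.96 CPM in cKO replicates 1 to 3, a reduction of 76.9% of the mean (edgeR FDR 0.000126). Library cKO replicate 3 stood apart from its label of testis. Xist, the RNA of the inactive X chromosome, was at 379 CPM there and at 1 CPM or less in the other 5 samples, and Fst, an ovarian supporting cell gene, was at 50.9 CPM against at most 2.02 CPM elsewhere. Y-linked genes were also detected in this library, at a sum of 220 CPM over 4 genes against 258 to 277 CPM in the others. Fold changes of named Notch pathway genes, and edgeR counts of such genes at a threshold, are therefore also given without it. Counts of marker genes, of DESeq2 calls and of genes without overlap are given only with it. Sertoli cell genes were present in all samples, with a sum over 8 markers between 1366 and 1835 CPM. In edgeR 0 of the 8 were called. At an unadjusted p below 0.05 were 2 of 8, both higher in cKO testes, against 11.4% of all genes. As these were whole gonads, fewer cells of a type and less RNA per cell cannot be told apart.

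None of the 10 Notch genes passed the test between control and cKO testes, with log2 fold changes (cKO against control) between -0.19 and 0.11. edgeR's quasi-likelihood test with Benjamini-Hochberg adjustment called 0 of 10 at an FDR below 0.05, where 0.0385% of all tested genes were called, and the lowest FDR among the 10 was 0.454. At an unadjusted p below 0.05 there were also 0 of 10, against 11.4% of all genes. DESeq2 called 0 of 10, against 0.779% of the genes to which it gave an adjusted p. The range of the control samples overlapped that of the cKO samples for all 10 genes, while 15.6% of all genes had groups that did not overlap. For Notch2 this overlap rested on cKO replicate 3, as cKO replicates 1 and 2 lay above every control sample. The share of all genes was not computed without that library. Of the log2 fold changes 4 were above and 6 below 0, with a median of -0.041 beside -0.0034 for all tested genes. The median size of the log2 change regardless of sign was 0.083 for the 10 genes and 0.099 for all tested genes. The 95% intervals, made from the standard error (SE) of each fit, spanned -0.59 to 0.33 over the 10 genes, or 0.665-fold to 1.25-fold. Without cKO replicate 3, 0 of 10 were called and 0 of 10 had an unadjusted p below 0.05, against 0.0189% and 7.83% of the genes then tested.

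**Figure D1:**
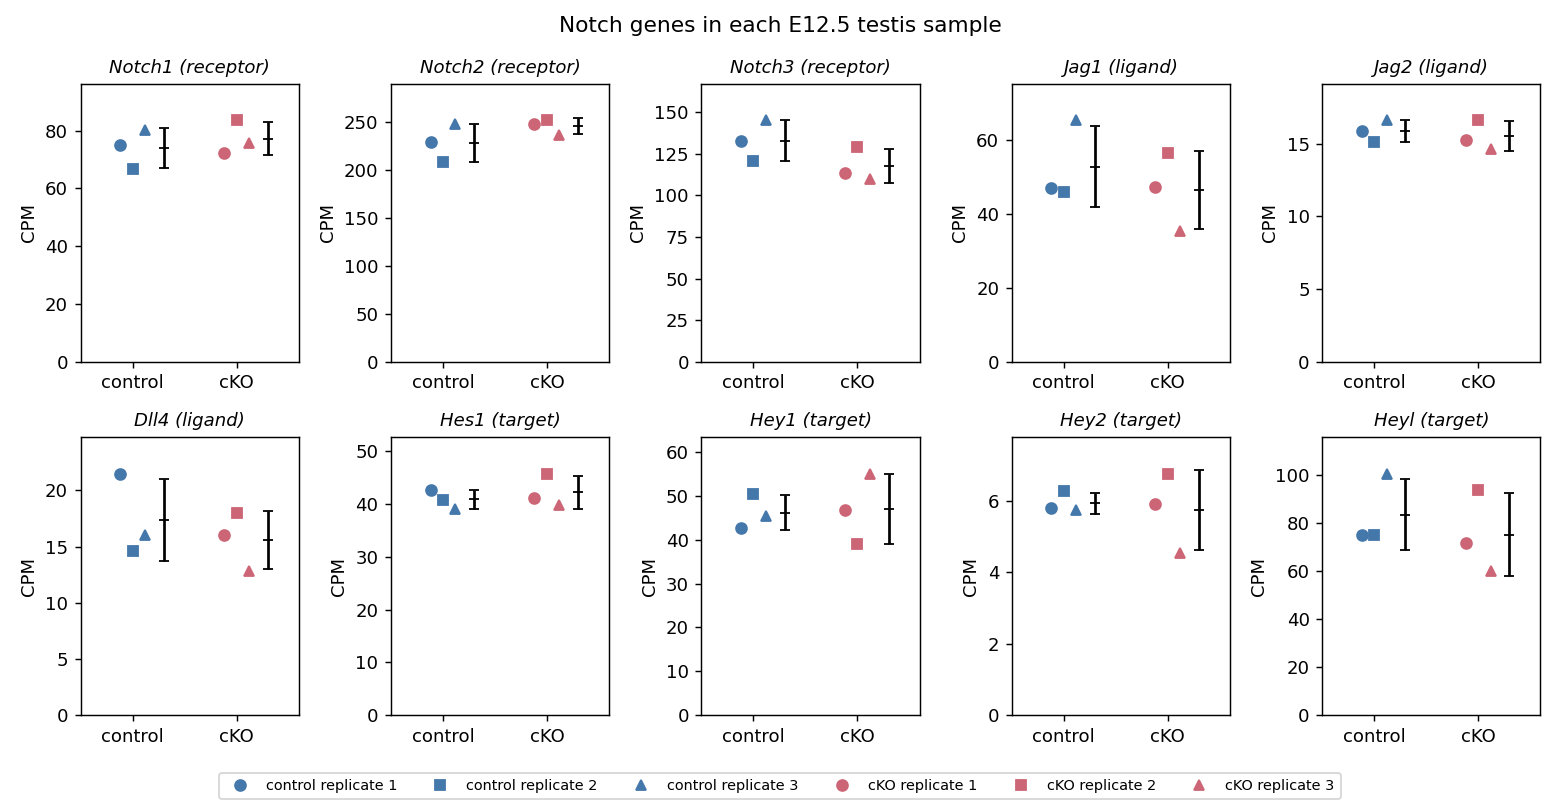
Level of each Notch gene in CPM (y axes from 0, a separate scale for each gene) in the 3 control and 3 cKO samples, with symbols for the replicate number and black bars for the mean ± SD (n = 3). Control and cKO samples overlapped for each gene, for Notch2 only through cKO replicate 3. That library was the lowest sample for Notch3, Jag1, Jag2, Dll4, Hey2 and Heyl.

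To compare levels between genes, CPM were divided by the exon length of each gene in kb. On this scale Hes1, a repressor gene that responds to Notch in many tissues, was the highest, at 27.8 ± 1.23 CPM per kb in control and 28.7 ± 2.15 in cKO testes (SD, n = 3 each). Notch2 followed with 21.7 ± 1.87 in control and 23.4 ± 0.774 CPM per kb in cKO testes, and its highest sample lay below the lowest sample of Hes1. Hey1, Heyl and Notch3 came next, with means over the 6 samples of 19.2, 17.5 and 15.6 CPM per kb. From Notch2 to Notch3 the range of each gene overlapped that of the next. Within samples Notch2 was above Hey1 in 4 of 6, Hey1 above Heyl in 4 of 6 and Heyl above Notch3 in 5 of 6. The order of these neighbours was thus not the same in each sample. Notch3 was above Jag1 in 6 of 6 samples without overlap. Jag1 and Notch1 overlapped, with means of 8.83 and 7.97 CPM per kb. Below them Dll4, Jag2 and Hey2 followed without overlap, at means of 4.40, 3.07 and 2.29 CPM per kb. The highest and the lowest of the 10 genes were thus both targets, and the 3 ligands were at 8.83 CPM per kb or below. The order of the 10 means was the same without cKO replicate 3.

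**Figure D2:**
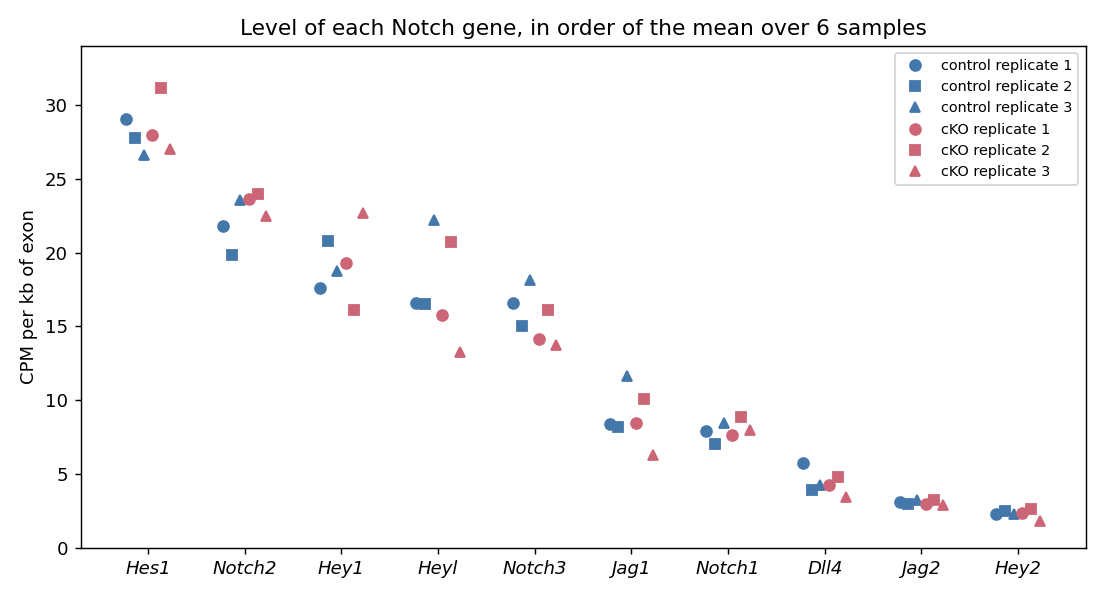
Level of each Notch gene in CPM per kb of exon (y axis from 0), 1 symbol per sample, with genes in order of their mean over the 6 samples. Hes1 lay above Notch2 in each sample, Notch2 to Notch3 overlapped with their neighbours, and Dll4, Jag2 and Hey2 formed the low end.

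Gene positions below are those of the count table, on mm10. Among the receptors, Notch2 (chr3:98013538-98150367, plus strand), which is broadly expressed in mesenchyme, had 229, 208 and 247 CPM in control replicates 1 to 3 and 248, 252 and 236 CPM in cKO replicates 1 to 3. The cKO samples all lay above the control mean. Only cKO replicate 3 lay within the control range, below control replicate 3. The other cKO samples lay above every control sample, replicate 1 by little (247.9 against 247.4 CPM in control replicate 3). The log2 fold change was 0.11 (SE 0.0676, 95% interval -0.047 to 0.26, edgeR FDR 0.574), and 0.13 without cKO replicate 3. Notch3 (chr17:32120893-32166852, minus strand), the receptor of pericytes and smooth muscle of vessels, had 133, 120 and 145 CPM in control and 113, 129 and 110 CPM in cKO replicates 1 to 3. All 3 cKO samples lay below the control mean, although cKO replicate 2 was above control replicate 2. Its log2 fold change of -0.18 (SE 0.0834, 95% interval -0.36 to 0.011) had the lowest p of the 10 genes, 0.0616, with an edgeR FDR of 0.454. Without cKO replicate 3 it was -0.13. Notch1 (chr2:26457902-26503822, minus strand), a receptor of endothelial cells among others, had 75.1, 66.7 and 80.4 CPM in control and 72.3, 83.7 and 75.8 CPM in cKO samples. The groups were interleaved, with a log2 fold change of 0.062 (SE 0.0846, 95% interval -0.13 to 0.25, edgeR FDR 0.813), and 0.076 without cKO replicate 3.

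The make-up of the receptor transcripts was then compared within samples, a comparison chosen after the values were seen. Of the summed CPM per kb of Notch1, Notch2 and Notch3, Notch3 took 35.8%, 35.9% and 36.1% in control replicates 1 to 3 and 31.2%, 32.9% and 31.1% in cKO replicates 1 to 3. The Notch2 share was 47.1 ± 0.190% in control and 50.7 ± 1.51% in cKO testes, and the Notch1 share 16.9 ± 0.166% and 17.6 ± 0.730% (SD, n = 3 each). The CPM ratio of Notch2 to Notch3 was 1.72, 1.73 and 1.70 in control and 2.19, 1.95 and 2.15 in cKO samples. Control samples thus differed little among themselves in this ratio, and each cKO sample lay above them. When the ratio to Notch2 was taken for each of the other tested genes, the groups did not overlap for 16.0%, and were lower in cKO testes for 14.7%, so that a ratio of this kind was not rare. Of the 45 pairs among the 10 genes 5 had ratios whose groups did not overlap, and 4 of these held Notch3. The partners of Notch3 in these 4 were Notch1, Notch2, Jag2 and Hes1. As the 4 pairs share Notch3, they are not separate observations, and no share over all genes was computed for ratios to Notch3. No test was applied, since the ratio was picked after its values were known and 3 against 3 samples cannot give an exact permutation p below 0.1.

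**Figure D3:**
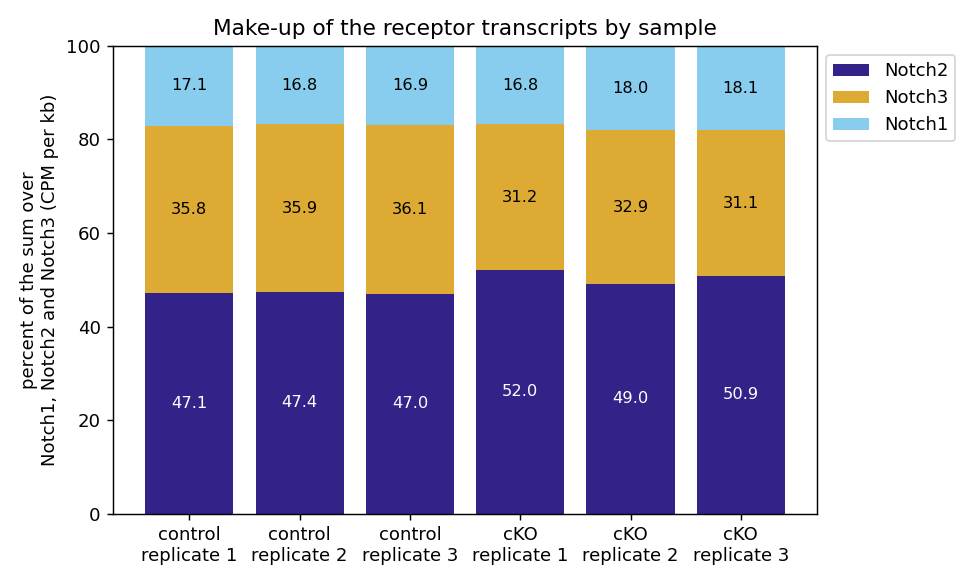
Share of Notch1, Notch2 and Notch3 in their summed CPM per kb of exon (y axis in percent), 1 bar per sample. The Notch3 share was 35.8% to 36.1% in the control samples and 31.1% to 32.9% in the cKO samples.

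All 3 ligand genes had log2 fold changes below 0, and none passed the test. Jag1 (chr2:137081451-137116520, minus strand), a Jagged ligand, had 47.1, 45.8 and 65.4 CPM in control and 47.4, 56.4 and 35.3 CPM in cKO replicates 1 to 3. It was highest in control replicate 3 and lowest in cKO replicate 3, and the other 4 samples were mixed between the groups. The log2 fold change was -0.19 (SE 0.177, 95% interval -0.59 to 0.21, edgeR FDR 0.703), but -0.030 without cKO replicate 3 and -0.0043 without control replicate 3. Dll4 (chr2:119325784-119335666, plus strand), the ligand of arterial and sprouting endothelial cells, had 21.5, 14.6 and 16.0 CPM in control and 16.0, 17.9 and 12.9 CPM in cKO samples. Control replicate 1 and cKO replicate 3 were its extremes. Its log2 fold change of -0.14 (SE 0.162, 95% interval -0.50 to 0.23, edgeR FDR 0.777) was -0.014 without cKO replicate 3 and 0.029 without control replicate 1. The antisense gene Gm14207 overlaps the start of Dll4 on the other strand with at most 20 counts in a sample, and the counting used strand. Jag2 (chr12:112908590-112929495, minus strand) was the steadiest ligand, at 15.9, 15.1 and 16.6 CPM in control and 15.3, 16.6 and 14.6 CPM in cKO samples. Its log2 fold change was -0.033 (SE 0.0901, 95% interval -0.24 to 0.17, edgeR FDR 0.913), and 0.0074 without cKO replicate 3. Summed over the 3 ligands, the level was 17.2 ± 2.09 CPM per kb in control and 15.5 ± 2.76 in cKO testes (SD, n = 3 each, exact two-sided permutation p 0.5).

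The target genes gave no common direction. Hes1 (chr16:30065357-30067796, plus strand) had 42.7, 40.8 and 39.1 CPM in control and 41.1, 45.7 and 39.7 CPM in cKO samples, with the narrowest control spread of the 10 genes at a coefficient of variation of 4.41%. Its log2 fold change was 0.049 (SE 0.0735, 95% interval -0.12 to 0.21, edgeR FDR 0.833), and 0.091 without cKO replicate 3. Hey1 (chr3:8663359-8667038, minus strand) had 42.6, 50.4 and 45.4 CPM in control and 46.7, 39.0 and 55.0 CPM in cKO samples. Both its lowest and its highest sample were thus cKO samples, replicates 2 and 3, and its log2 fold change of 0.020 (SE 0.118, 95% interval -0.25 to 0.29, edgeR FDR 0.967) became -0.11 without cKO replicate 3. Heyl (chr4:123233556-123249870, plus strand), a family member of mural and mesenchymal cells, had 75.3, 74.9 and 101 CPM in control and 71.7, 94.0 and 60.2 CPM in cKO samples. Its log2 fold change was -0.15 (SE 0.163, 95% interval -0.52 to 0.21, edgeR FDR 0.740), and -0.017 without cKO replicate 3. Summed over the 4 targets, the level was 67.6 ± 2.13 CPM per kb in control and 66.9 ± 3.21 in cKO testes (SD, n = 3 each, exact two-sided permutation p 0.8).

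Hey2 (chr10:30832359-30842783, minus strand), a repressor gene of arteries and heart, was the lowest of the 10 genes. It had 5.79, 6.27 and 5.73 CPM in control and 5.91, 6.76 and 4.54 CPM in cKO samples, from 94 to 277 counts in a library. The log2 fold change was -0.049 (SE 0.167, 95% interval -0.42 to 0.33, edgeR FDR 0.932), and 0.092 without cKO replicate 3. Promoter windows, from 250 bases before to 50 after the gene start (RefSeq, GRCm38.p6), were found for 7 of the 10 genes, all except Hes1, Hey1 and Heyl. They were searched on both strands for TGGGAA, the core of the RBPJ binding motif, which 25.6% of all promoter windows of this length hold. Hey2 was the 1 of 7 with a match. It is shown because it is the 1 target gene with a window and holds letters through which Notch is known to act. The sequence runs with 250 bases before the start and 3 after it (chr10:30842781-30843033, minus strand), and capitals mark the matches.
Hey2 promoter: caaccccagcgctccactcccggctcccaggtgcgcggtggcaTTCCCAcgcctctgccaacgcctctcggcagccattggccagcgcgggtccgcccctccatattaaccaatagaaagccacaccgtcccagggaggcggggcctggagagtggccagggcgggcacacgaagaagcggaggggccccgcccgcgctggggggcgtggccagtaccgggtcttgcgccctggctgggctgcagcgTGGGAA
The first match lies 207 to 202 bases before the start and reads TTCCCA, the motif on the other strand, and the second spans the start with 3 bases on each side. Both are part of the longer form GTGGGAA, which holds the core and is found in 6.38% of all windows. These matches are letters in a window, and binding was not measured.

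**Figure D4:**
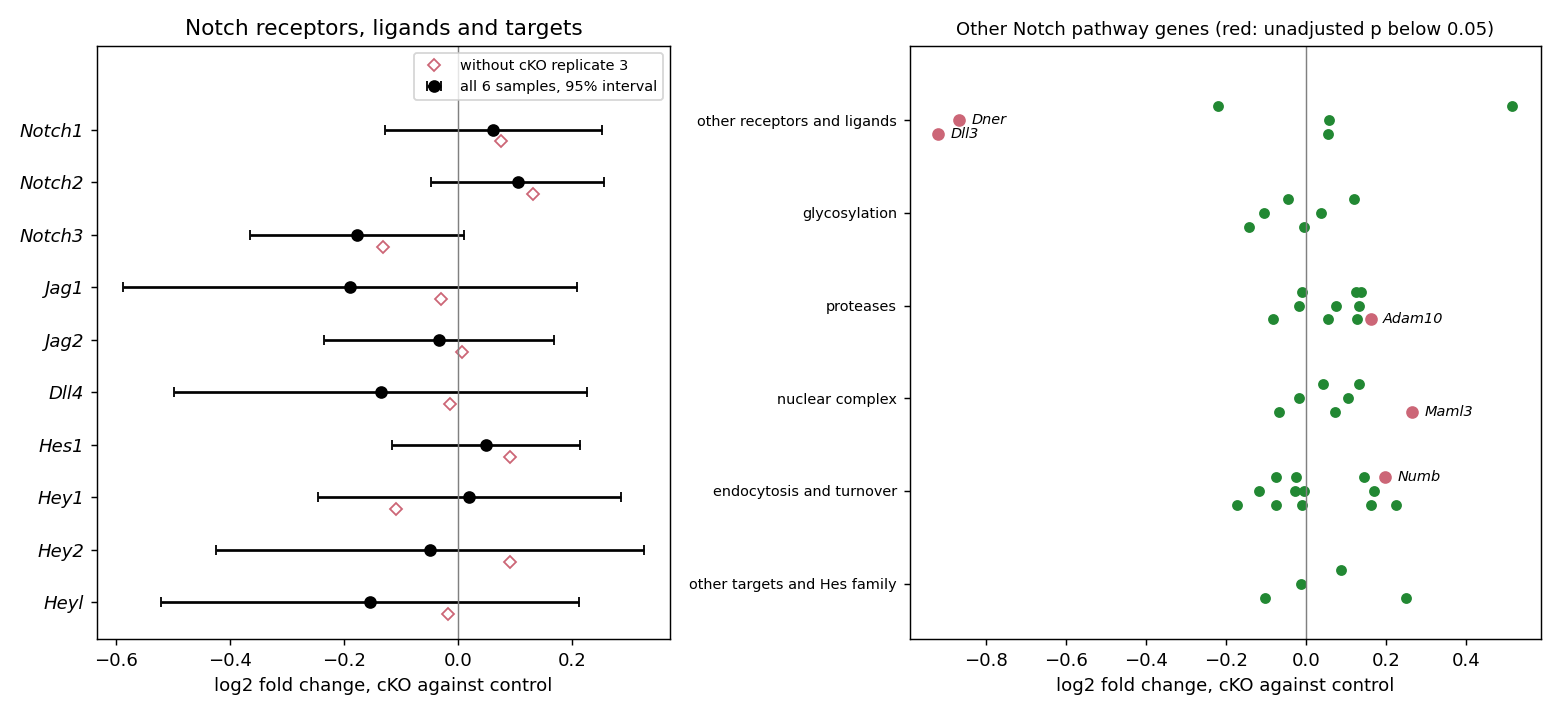
Left, log2 fold change of each Notch gene (cKO against control) with its 95% interval, and as open diamonds the value without cKO replicate 3. Right, log2 fold changes of 46 other tested Notch pathway genes by role, in red with names for those at an unadjusted p below 0.05. All 10 intervals on the left include 0, and without cKO replicate 3 Jag1, Dll4 and Heyl lay at -0.030, -0.014 and -0.017.

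The spread of several Notch genes within a group was wider than their difference between groups. The coefficient of variation in control and cKO testes was 20.8% and 22.8% for Jag1, 17.7% and 22.8% for Heyl, and 20.9% and 16.4% for Dll4. Jag1 and Heyl shared their order at both ends: control replicate 3 was highest, cKO replicate 2 next and cKO replicate 3 lowest. Hey1 had cKO replicate 2 lowest and cKO replicate 3 highest. The fetal Leydig list of 6 steroidogenic and Leydig genes, led by Hsd3b1, had summed levels of 243, 335 and 443 CPM in control and 284, 376 and 165 CPM in cKO replicates 1 to 3. It thus shared the highest, second and lowest samples with Jag1 and Heyl. This list had 0 of 6 genes called, and its difference between groups was within the spread (exact two-sided permutation p 0.5). The difference of its means (cKO minus control) was -65.4 summed CPM, and -10.3 without cKO replicate 3. The pericyte and smooth muscle list had the same highest, second and lowest samples, at 490.5, 482.7 and 398.7 summed CPM. The shared order was thus not particular to the fetal Leydig list. These orders were compared after the values were seen, and the part of either list in the levels of Jag1 and Heyl was not tested.

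**Figure D5:**
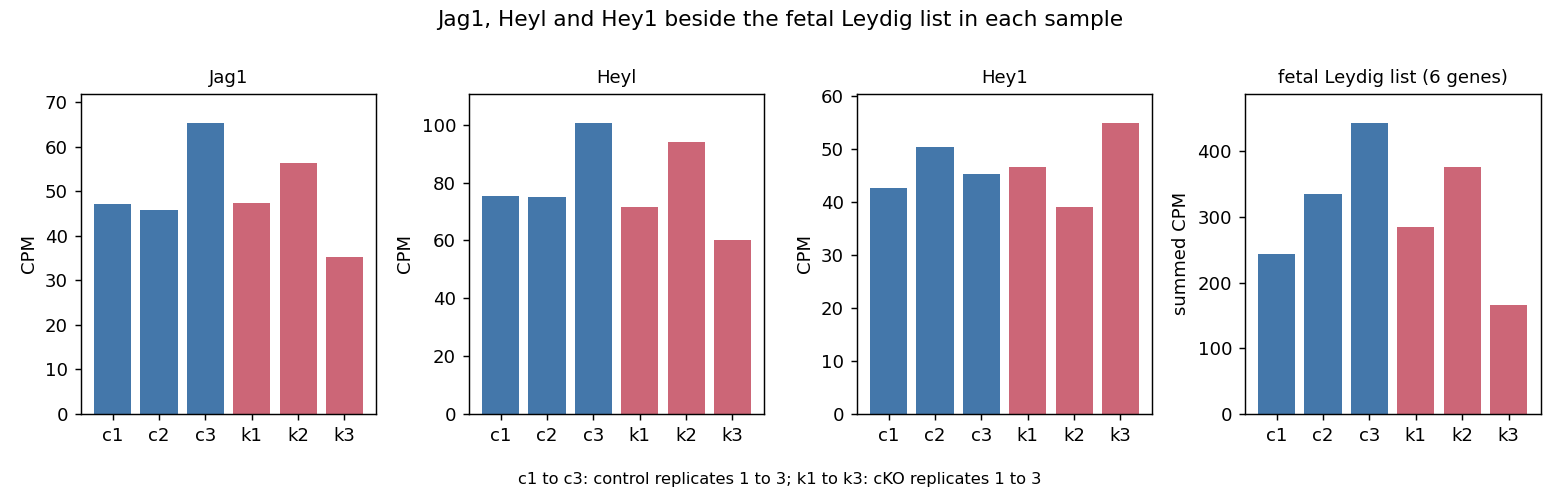
Levels of Jag1, Heyl and Hey1 in CPM and of the fetal Leydig list in summed CPM (bars from 0), 1 bar per sample, with control in blue and cKO in red. Control replicate 3 and cKO replicate 2 were the highest samples, and cKO replicate 3 the lowest, for Jag1, Heyl and the fetal Leydig list, while cKO replicate 3 was the highest for Hey1.

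The summed marker lists of the cell types in which these genes are known to act overlapped between the groups. The endothelial list of 10 genes, led by Cdh5, ranged from 734 to 832 summed CPM in control and from 719 to 840 in cKO testes, with 0 genes called and a median log2 fold change of 0.0034. The pericyte and smooth muscle list of 7 genes, led by Pdgfrb, ranged from 431 to 491 and from 399 to 483 CPM. The interstitial progenitor list of 8 genes, led by Pdgfra, ranged from 1585 to 1845 and from 1615 to 1857 CPM. Single genes at an unadjusted p below 0.05 in edgeR were 1 of 10, 2 of 7 and 0 of 8 in these lists, against 11.4% of all genes. The endothelial gene was lower in cKO testes, and of the 2 pericyte and smooth muscle genes 1 was higher and 1 lower. The sum of each of these 3 lists overlapped between the groups, with exact two-sided permutation p values of 0.8, 0.8 and 1. Single genes did not overlap for 1 of 10, 1 of 7 and 0 of 8, against 15.6% of all genes. The endothelial gene and the pericyte and smooth muscle gene without overlap were both lower in cKO testes. Without cKO replicate 3 the difference of the means (cKO minus control) went from -8.11 to -0.992 summed CPM for the endothelial list, from -6.99 to 19.0 for the pericyte and smooth muscle list and from -32.9 to 11.4 for the interstitial progenitor list. Germ cell markers, led by Dazl, ranged from 455 to 735 summed CPM in control and from 227 to 475 in cKO testes over 8 genes (exact two-sided permutation p 0.2). Of these markers 7 of 7 tested were below 0 on the log2 scale and 0 were called. At an unadjusted p below 0.05 in edgeR were 6 of the 7 markers, all lower in cKO testes, against 11.4% of all genes. The difference of their means was -278 summed CPM, and -280 without cKO replicate 3. Pre-granulosa markers were at 82.8 to 99.99 summed CPM in control testes, and at 100.2 and 97.3 CPM in cKO replicates 1 and 2 against 268 CPM in cKO replicate 3. Markers of macrophages (30.5 to 35.0 CPM over 6 genes) and mesonephros (19.1 to 30.1 CPM over 6 genes) were low in all samples, and Cdh16 of the mesonephros was at 0 counts in some samples. The mesonephros sum held genes of both directions, with 3 of 5 tested above 0 on the log2 scale, 2 below and 0 called. Higher in cKO testes without overlap, at an unadjusted p below 0.05 in edgeR, were 2 of these 5. Of all genes 11.4% were at this p and 15.6% did not overlap.

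Other genes of the pathway were taken from a list of 48, of which 46 passed the filter. edgeR and DESeq2 each called 0 of them. At an unadjusted p below 0.05 there were 5 of 46 (10.9%, against 11.4% of all genes), 3 higher and 2 lower in cKO testes, against 5.56% and 5.80% of all genes. Groups did not overlap for 10 of 46, or 21.7%, against 15.6% of all genes. Higher in cKO testes were 6 of 46 and lower 4 of 46, against 8.42% and 7.17% of all genes. These counts include cKO replicate 3 and were not made without it. The median log2 fold change was 0.040. Without cKO replicate 3, 0 of 46 were called and 2 of 46 were at an unadjusted p below 0.05, Dll3 (lower) and Maml3 (higher), against 7.83% of the genes then tested, with a median of 0.038. Dner, Adam10 and Numb were at this threshold only with that library included. Hes2 and Hes3, Hes family genes, did not pass the filter, with at most 4 and 10 counts in a sample.

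Dll3, a divergent ligand that acts within the cell, had the lowest p of the list and the lowest log2 fold change. It was at 2.65, 2.99 and 4.17 CPM in control and 1.82, 1.72 and 1.69 CPM in cKO replicates 1 to 3, from 43 to 171 counts in a library. All 3 cKO samples lay below all 3 control samples. The log2 fold change was -0.92 (SE 0.217, unadjusted p 0.00199, edgeR FDR 0.377; DESeq2 FDR 0.0811), and -0.90 without cKO replicate 3. The summed germ cell markers were lower in the same direction, and their part in the Dll3 level was not tested. Dner, a ligand known from neurons, was at 0.677, 0.747 and 0.537 CPM in control and 0.424, 0.361 and 0.272 CPM in cKO samples, from 9 to 33 counts. Its groups did not overlap, and its change on the log2 scale was -0.87 (SE 0.339, edgeR FDR 0.402), or -0.72 without cKO replicate 3.

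Higher in cKO testes at an unadjusted p below 0.05 were Maml3 (1 of 7 nuclear complex genes) and Adam10 (1 of 10 proteases). So was Numb (1 of 13 endocytosis and turnover genes), against 5.56% of all genes in edgeR. Without cKO replicate 3, Maml3 was also below this p (unadjusted p 0.0304 in edgeR) and Adam10 and Numb were not (0.105 and 0.134). Rbpj, the DNA-binding partner of all Notch receptors, was named after its values were seen, and its change was -0.016 on the log2 scale (SE 0.0648, edgeR FDR 0.943), or -0.046 without cKO replicate 3. Maml3, a Mastermind coactivator, was at 47.3, 46.7 and 43.2 CPM in control and 51.7, 52.9 and 60.5 CPM in cKO replicates 1 to 3. Its groups did not overlap, and its log2 fold change was 0.27 (SE 0.0777, edgeR FDR 0.377), or 0.19 without cKO replicate 3. Adam10, the protease of the first receptor cleavage, was at 338, 329 and 321 CPM in control and 350, 360 and 394 CPM in cKO samples. This gave 0.16 on the log2 scale (SE 0.0583, edgeR FDR 0.382), or 0.11 without cKO replicate 3. Numb, an endocytic inhibitor of Notch and the remaining gene at an unadjusted p below 0.05, had a value of 0.20 (SE 0.0779, edgeR FDR 0.404), or 0.11 without cKO replicate 3. Dlk2 had the highest log2 fold change of the list, 0.51 (SE 0.344, edgeR FDR 0.587), or 0.54 without cKO replicate 3, from at most 24 counts in a library. Of the 10 protease and gamma-secretase genes 7 were above 0 and 3 below, and of the 13 genes of endocytosis and turnover 5 were above and 8 below, with 0 called in each group. The 6 glycosylation genes, which include the Fringe enzymes, had log2 fold changes between -0.14 and 0.12.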

How the data were processed

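RNA was extracted with the PicoPure kit, libraries were made with the TruSeq Stranded mRNA protocol, and the authors aligned read pairs to mm10 with STAR (version 2.5) and counted them per RefSeq gene with featureCounts (Subread, reverse-stranded). The deposited values are raw counts per gene, without normalization, and no per-sample column was left unused. Samples were grouped by their titles. Counts were filtered with filterByExpr (minimum count 10), scaled by TMM and compared with the quasi-likelihood F-test of edgeR (version 4.0.16, R 4.3.3) over all 15577 genes that passed, with Benjamini-Hochberg adjustment and a threshold of 0.05. SE came from the F statistic, and 95% intervals from SE and the t distribution. The labels do not say that samples are separate litters, so p-values measure the spread between these pools. Libraries held 16139487 to 44145158 counts, and SEs were 0.0676 to 0.177 on the log2 scale for the 10 genes. Exon lengths came from GENCODE vM21 (GRCm38), whose gene models differ from those counted. The test scripts were first run on simulated counts. Alternatives were DESeq2 (version 1.42.0), limma-voom (limma 3.58.1), RLE size factors, no filter, a minimum of 1 CPM in 3 samples, a replicate block, thinned libraries, and leaving out each sample. The members and lists were chosen with earlier results of these data known. Named were the 10 genes, Ppp1r3c, Xist, Fst, list genes that were called, of lowest p, at either end or untested, and leading or undetected markers. Numb and Dner, at an unadjusted p below 0.05, were named after their values were seen. A further marker list is not reported here.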

Additional observations from a re-analysis of the deposited data

How the results depend on the processing

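The count of called Notch genes was 0 under all 13 alternatives, as was that of the wider list, and the lowest FDR of any of the 10 genes was 0.433. Of 130 values of single genes 119 kept their sign. The number of all genes called, 6, was 111 with DESeq2 and 3 with the replicate block, and ranged from 2 to 8 without single samples. The cause was not tested. At an unadjusted p below 0.05 in edgeR there were 0 to 2 of the 10 Notch genes without single samples. These were Notch3 and Heyl without cKO replicate 2, Notch3 without control replicate 2 and Notch2 without control replicate 3. Among these fits the share of all genes at this p is given only without cKO replicate 3 (7.83%), where 0 Notch genes were. Whether the other counts exceed that share was thus not tested. The median log2 fold change of the 10 genes ranged from -0.134 to -0.00175 without single samples.

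There were 11 sign changes, in 7 genes. Without single samples Notch1 ranged from -0.0195 to 0.122, Jag2 from -0.0861 to 0.00743, Dll4 from -0.258 to 0.0291, Hes1 from -0.0124 to 0.0908, Hey1 from -0.109 to 0.136, Hey2 from -0.182 to 0.0919 and Heyl from -0.345 to 0.000739. Hey1 was at -0.00677 with limma-voom and Hey2 at 0.00169 in thinned libraries.

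Differences in summed CPM of marker lists changed sign without single samples, ranging from -41.6 to 18.8 for endothelial, -118 to 21.7 for interstitial progenitor, -23.1 to 19.0 for pericyte and smooth muscle, -126 to 114 for Sertoli, -2.01 to 0.183 for macrophage and -2.76 to 2.76 for mesonephros genes. Control and cKO samples with a shared replicate number did not deviate together (correlations of -0.20, -0.27 and -0.13). They are therefore not treated as pairs, and the fit with the replicate block called 0 Notch genes. The lowest gene, Hey2, had 94 counts in the shallowest library.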
